A study of Mus musculus with 6 samples.

Results

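Sult1a1 and 9 other enzymes of xenobiotic metabolism were followed in mouse aorta. They are Gstm1, Gsta3, Gstt1, Ephx1, Cyp1b1, Aldh1a1, Fmo1, Fmo2 and Ces1d, and together they are 10 of the 55335 genes in the count table. The rows were taken by gene symbol, and the set was chosen by the measured values, around Sult1a1, because its level was among the clearest differences between the age groups. In the comparison of aged with young aorta its p ranked 4 of the 16612 genes tested, so the age difference of these genes is given as a description, without a test. All 10 genes passed the filter on low counts.

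Aorta was taken from WT c57b6l mice, with 3 mice aged 6 weeks (young) and 3 mice aged 6 months (aged), and no agent or allele distinguished the groups. The mice are described as male C57BL/6, were killed under xylazine anaesthesia, and had the fat around the vessel dissected before freezing. Each library came from 1 mouse, and the labels do not state separate cages or days. Between 31049632 and 45832185 reads were counted on genes per library. Mitochondrial genes took 21.2%, 16.7% and 14.9% of the counts in young and 23.1%, 26.7% and 30.4% in aged replicates 1, 2 and 3. Every aged library was thus above every young one in this share, and its part in the differences between scalings was not tested. The CPM used here is the read count scaled by library total and TMM factor, which compares 1 gene across libraries, while FPKM, which is also divided by gene length, is used to compare genes with each other.

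Cells dispose of foreign compounds in steps. Phase I enzymes such as cytochromes P450, flavin monooxygenases, aldehyde dehydrogenases and esterases oxidise or cleave a compound, and phase II enzymes such as sulfotransferases and glutathione transferases then attach a polar group so that it can be exported. The same enzymes also act on the body's own steroids, retinoids and lipids. They are best known from the liver, but many are also made in vessel wall, lung and fat, and the receptor AHR, the stress factor NRF2 and the clock-driven PAR bZIP factors are known regulators of several of them.

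A pair of libraries stood apart from their groups. Young replicate 1 had Xist, the RNA of the inactive X chromosome, at 305.6 CPM against 0.204 to 0.636 CPM in the other 5 libraries, and the Y-linked Ddx3y at 1.09 CPM against 44.8 to 65.6 CPM, which goes against the male sex stated for all mice. The same library had 8 clock genes (Per2, Per3, Ciart, Nr1d1, Nr1d2 and the PAR bZIP genes Dbp, Tef and Hlf) at a summed 201 CPM. The other libraries had 704 to 1473 CPM. Its cardiac muscle genes were at 300 CPM against 44.3 to 59.5 CPM. Aged replicate 2 lay at -13.4 on the first principal component, on the side of the young libraries (-52.2 to -10.3) and away from the other aged libraries (53.8 and 62.7). Smooth muscle markers (Acta2, Myh11, Tagln, Cnn1 and Smtn), which define the aortic media, summed to between 27236 and 39240 CPM, so the tissue label was met in all 6 libraries. The 5 hepatocyte markers (Alb, Apoa1, Ttr, Cyp3a11 and Serpina1a) summed to 127 CPM in young replicate 3, of which Alb made 102 CPM, and to between 13.2 and 29.7 CPM in the other libraries.

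Sult1a1 encodes a cytosolic sulfotransferase that attaches sulfate to phenols, including drugs, catechols and thyroid hormone. It had 27.3, 25.0 and 20.3 CPM in young replicates 1, 2 and 3. In aged replicates 1, 2 and 3 it had 59.7, 61.6 and 60.6 CPM. All aged libraries lay above all young libraries, and the aged libraries were closely grouped, with a highest value 1.03 times the lowest. The mean was 24.2 ± 3.59 CPM (SD, n = 3) in young and 60.6 ± 0.951 CPM (SD, n = 3) in aged aorta, a fitted 2.51-fold difference (log2 fold change 1.32, standard error 0.16, edgeR). Neither library that stood apart carried it. The log2 fold change was 1.43 without young replicate 1, 1.31 without aged replicate 2 and 1.41 without both. These values rest on 695 to 2323 counts per library.

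**Figure D1:**
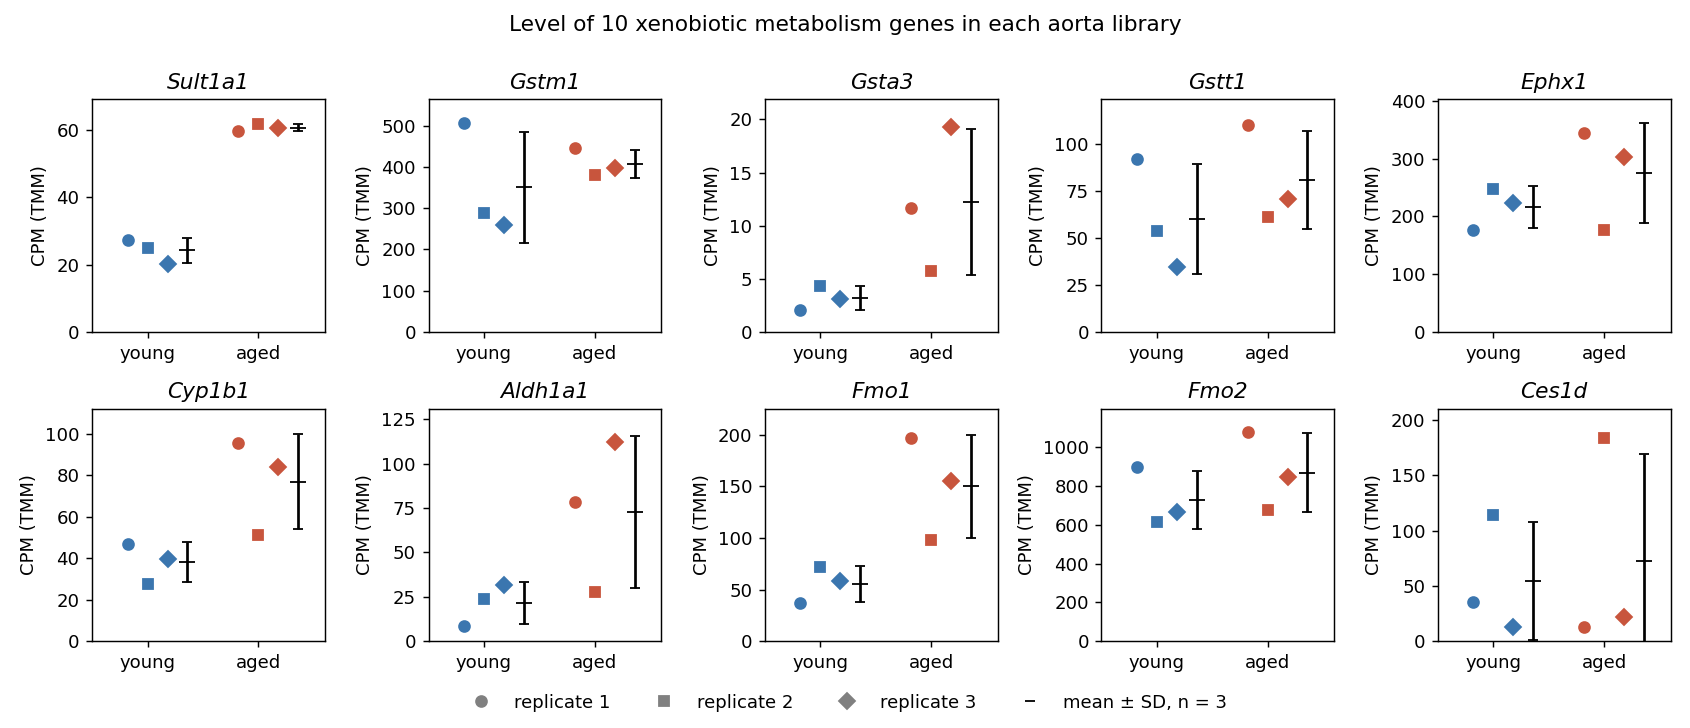
Level of each gene (CPM after TMM scaling, vertical axis from 0) in the 3 young and 3 aged aorta libraries. Marker shape gives the replicate, and bars give the mean ± SD (n = 3), with the lower arm of aged Ces1d ending at the axis. Sult1a1 is near 60 CPM in every aged library and at 27.3 CPM or below in every young one, whereas aged replicate 2 is the lowest aged library for 8 of the 10 genes.

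Sult1a1 lies on chromosome 7 of GRCm38 from 126672865 to 126676432, on the minus strand (GENCODE M21). Its exons overlap those of Sgf29, a protein-coding gene on the opposite strand, and the sources used here do not say whether reads were counted by strand. Sgf29 was between 12.1 and 19.4 CPM, with 12.8, 12.1 and 15.1 CPM in young and 19.4, 12.1 and 16.5 CPM in aged replicates 1, 2 and 3. The groups overlapped for Sgf29, and its highest level was below the lowest level of Sult1a1 (20.3 CPM). Of the 1321 windows of 50 bases in the longest Sult1a1 transcript, 8.25% also occur in transcripts of other genes, mostly in the pseudogene Gm6939, which had between 49 and 74 counts per library. The reads were 50 cycles long, so reads from those windows cannot be assigned to 1 gene by sequence alone.

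The bases before the start sites of Sult1a1, Gsta3 and Cyp1b1 are shown because these are 3 of the 4 genes whose groups did not overlap, and no start region for the fourth, Fmo1, was at hand. They come from RefSeq (GRCm38.p6), run 5′ to 3′ on the strand of the gene over 250 bases up to the start site, and have motif matches in capitals. RefSeq start regions were matched for 8 of the 10 genes. The motifs searched on both strands were GCGTG (the core bound by AHR with ARNT), TGACNNNGC (the antioxidant response element), TTATGNAA (the D-box of PAR bZIP factors) and CACGTG (the E-box of clock factors). The Sult1a1 window spans chr7:126676419-126676668 (minus strand), that of Gsta3 chr1:21240335-21240584 (plus strand) and that of Cyp1b1 chr17:79715062-79715311 (minus strand).
Sult1a1: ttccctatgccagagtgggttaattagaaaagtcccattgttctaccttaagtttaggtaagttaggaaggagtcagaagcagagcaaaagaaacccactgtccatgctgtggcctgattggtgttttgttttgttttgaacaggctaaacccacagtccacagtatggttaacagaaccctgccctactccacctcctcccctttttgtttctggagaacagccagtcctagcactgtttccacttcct
Gsta3: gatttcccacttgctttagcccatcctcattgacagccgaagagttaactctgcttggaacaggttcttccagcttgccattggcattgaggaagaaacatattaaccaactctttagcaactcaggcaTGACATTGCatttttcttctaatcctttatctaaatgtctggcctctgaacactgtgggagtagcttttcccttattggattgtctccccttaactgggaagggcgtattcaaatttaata
Cyp1b1: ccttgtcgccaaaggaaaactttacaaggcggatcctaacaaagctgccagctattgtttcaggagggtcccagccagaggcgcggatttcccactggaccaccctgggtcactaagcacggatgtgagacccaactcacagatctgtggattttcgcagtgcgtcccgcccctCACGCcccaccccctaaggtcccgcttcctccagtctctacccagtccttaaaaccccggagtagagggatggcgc
The Sult1a1 window held none of the 4 motifs. Gsta3 held 1 match to the antioxidant response element, which 10.2% of 32851 start regions of this length also held. Cyp1b1 held 1 match to the AHR core, read as CACGC on the printed strand, and 28.2% of start regions held that core. These are letter matches within short windows and say nothing about binding.

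Among phase I enzymes, Cyp1b1, a P450 that oxidises polycyclic aromatic hydrocarbons and oestradiol and is a known AHR target, had 46.9, 27.8 and 39.8 CPM in young replicates 1, 2 and 3. In the aged replicates it had 95.4, 51.3 and 84.0 CPM. Every aged library was above every young one, but aged replicate 2 exceeded the highest young library by little. The log2 fold change was 1.01 (standard error 0.29), and 1.41 without young replicate 1 and aged replicate 2. The gene lies on chromosome 17 from 79701537 to 79715061, and none of the 50-base windows of its longest transcript recurred in another gene.

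Fmo1 and Fmo2 encode flavin monooxygenases, which add oxygen to nitrogen and sulfur atoms of drugs, and the genes are neighbours on chromosome 1 (162829561 to 162866610 and 162874317 to 162898726, both on the minus strand). Fmo1 was at 37.0, 71.6 and 58.4 CPM in young and at 196.8, 98.0 and 155.0 CPM in aged replicates 1, 2 and 3. Its groups did not overlap, and the log2 fold change was 1.43 (standard error 0.33), or 1.44 without both libraries that stood apart. Fmo2 was far more abundant, at 901, 617 and 669 CPM in young and 1081, 679 and 848 CPM in aged replicates. The Fmo2 groups overlapped, and its log2 fold change of 0.25 (standard error 0.24) was within the spread between mice.

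Aldh1a1, which oxidises retinaldehyde to retinoic acid, was at 8.81, 24.1 and 31.6 CPM in young and at 78.4, 27.5 and 112 CPM in aged replicates 1, 2 and 3. Aged replicate 2 fell inside the young range, so the groups overlapped. The log2 fold change was 1.76 with a standard error of 0.60, and it moved from 1.39 without young replicate 1 to 2.15 without aged replicate 2. Of its 50-base windows 6.54% are shared with Aldh1a7, a close relative that had 6.09, 2.82 and 2.10 CPM in young and 1.08, 20.04 and 0.566 CPM in aged replicates. Aldh1a7 was thus highest in aged replicate 2, where Aldh1a1 was lowest among the aged libraries.

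Ephx1, the microsomal epoxide hydrolase that opens reactive epoxides left by P450 enzymes, averaged 216 ± 36.4 CPM (SD, n = 3) in young and 275 ± 87.1 CPM (SD, n = 3) in aged aorta. Its log2 fold change of 0.35 had a standard error of 0.27, and the groups overlapped, since aged replicate 2 (177 CPM) lay at the level of young replicate 1 (176 CPM).

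Ces1d, a carboxylesterase that also hydrolyses stored triglyceride in fat and liver, varied most. It had 35.3, 114 and 12.8 CPM in young and 13.2, 184 and 21.6 CPM in aged replicates 1, 2 and 3, so the highest aged library was 13.9 times the lowest and the highest young library 8.90 times the lowest. The log2 fold change of 0.43 had a standard error of 1.10. Without aged replicate 2 it was -1.64, without young replicate 2 it was 1.61, and without young replicate 1 and aged replicate 2 it was -1.87, so no direction with age can be given. Several fat markers were high in the same libraries. Plin1, which coats lipid droplets, was at 25.7, 73.0 and 13.5 CPM in young and 7.31, 129 and 12.5 CPM in aged replicates, and Ucp1, the uncoupling protein of brown fat, at 153, 361 and 45.2 CPM and at 48.6, 1422 and 67.4 CPM. Not all fat markers had this order. Cfd, the adipocyte protease adipsin, was at 185, 86.2 and 35.0 CPM in young and at 66.3, 55.5 and 118 CPM in aged replicates, lowest of the aged libraries where Ces1d was highest, and Elovl3 was higher in young replicate 1 (6.67 CPM) than in young replicate 2 (1.49 CPM). Relative to the summed CPM of 5 brown adipocyte markers (Ucp1, Cidea, Elovl3, Ppargc1a and Cox8b), Ces1d took between 9.81% and 22.9% in the 6 libraries. Relative to 5 adipocyte markers (Adipoq, Plin1, Cidec, Lep and Cfd) it took between 12.3% and 49.1%. The part of fat cells in the level of Ces1d was not tested.

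Among phase II enzymes, the glutathione transferases join glutathione to reactive compounds. Gsta3, of the alpha class, had 2.08, 4.37 and 3.15 CPM in young and 11.6, 5.70 and 19.3 CPM in aged replicates 1, 2 and 3. Its groups did not overlap, although aged replicate 2 was again close to the young libraries. The log2 fold change of 1.93 (standard error 0.49) was the largest of the 10 genes in the fit of 6 libraries, and it rests on low counts, between 101 and 546 per library. It ranged from 1.44 without aged replicate 3 to 2.28 without aged replicate 2.

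Gstm1, of the mu class, was the most abundant of the 10 genes per length, with a mean of 232 FPKM over 6 libraries. It was at 506, 288 and 258 CPM in young and 445, 380 and 397 CPM in aged replicates 1, 2 and 3. Young replicate 1 was the highest of all 6 libraries, and the log2 fold change of 0.21 (standard error 0.27) became 0.58 without it. Of the 50-base windows of Gstm1, 23.1% occur in other genes, mostly in Gstm2-ps1, which had between 10 and 26 counts, so the split of reads within this cluster is uncertain. Gstt1, of the theta class, was also highest among the young libraries in young replicate 1, with 91.9 CPM there against 53.8 and 34.8 CPM in the other young libraries and 110, 61.3 and 70.7 CPM in aged replicates. Its log2 fold change was 0.42 (standard error 0.38), and 0.87 without young replicate 1. The groups overlapped for both genes.

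**Figure D2:**
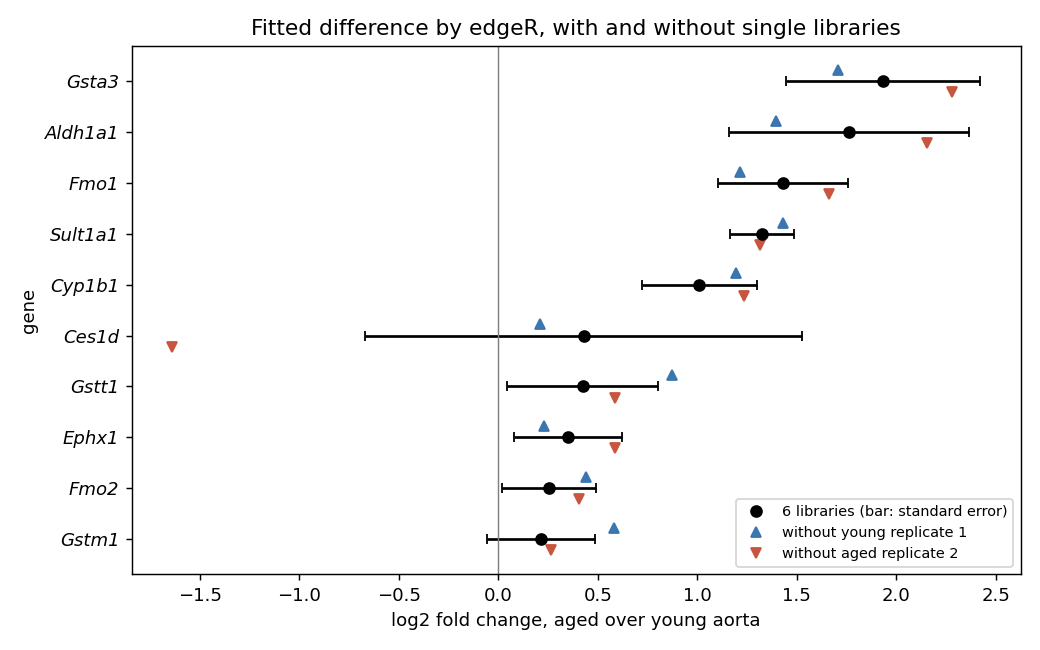
Log2 fold change of aged over young aorta for each gene (horizontal axis, edgeR), with bars for the standard error over 6 libraries. Triangles show the fit without young replicate 1 or without aged replicate 2. Sult1a1 stays between 1.31 and 1.43, while Ces1d moves from 0.43 to -1.64 without aged replicate 2.

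By mean FPKM over 6 libraries, the order was Gstm1 (232), Fmo2 (128), Ephx1 (113), Gstt1 (41.3), Sult1a1 (24.7), Ces1d (24.3), Fmo1 (14.3), Cyp1b1 (8.67), Aldh1a1 (8.27) and Gsta3 (1.52). Gstm1 was above Fmo2 in 6 of 6 libraries and their ranges did not meet, and the same held for Ephx1 above Gstt1. For the other neighbours in this order the ranges overlapped. Fmo2 was above Ephx1, Sult1a1 above Ces1d and Cyp1b1 above Aldh1a1 in 4 of 6 libraries each, and Ces1d above Fmo1 in 3 of 6. Gstt1 was above Sult1a1, and Fmo1 above Cyp1b1, in 5 of 6, and Aldh1a1 above Gsta3 in 6 of 6.

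All 10 genes had a positive log2 fold change in the fit of 6 libraries, with a median of 0.72 against 0.02 over all genes tested. With library totals in place of TMM scaling, which moved the median of all genes to -0.22, Gstm1 was at -0.01. By limma on FPKM with a pseudocount of 1, Ces1d was at -0.18. The groups did not overlap for 4 of the 10 genes, all higher in aged aorta, where 7.74% of all genes had every aged library above every young one. With library totals only this held for 3 of the 10, beside 3.05% of all genes. At an adjusted p below 0.05, edgeR called 0 of the 10 genes and 0% of all genes. At an unadjusted p below 0.05 it counted 5 of the 10 genes (Sult1a1, Gsta3, Cyp1b1, Aldh1a1 and Fmo1), all higher, beside 5.56% of all genes. DESeq2 called 4 (Sult1a1, Gsta3, Aldh1a1 and Fmo1), beside 1.36% of genes called higher. Limma on FPKM called 0, with 5 below an unadjusted 0.05, beside 16.1% of all genes in either direction and 2.52% higher in aged aorta. Leaving out aged replicate 2, edgeR called Sult1a1, beside 0.583% of genes called higher. Leaving out young replicate 1 as well, edgeR called 0. At an unadjusted p below 0.05 it then counted 9 of the 10 genes, beside 2766 of 16774 genes in either direction and 9.41% higher in aged aorta. The genes were chosen from this same comparison, and nothing about the set follows from these counts.

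Aged replicate 2 was the lowest aged library for 8 of them, all but Sult1a1 and Ces1d, whereas it was lowest for 38% of all genes tested. The fibroblast markers Dcn, Lum, Pdgfra, Col1a1 and Pi16 had the same order, with summed levels of 1715, 2002 and 2724 CPM in young and 5973, 1550 and 4332 CPM in aged replicates 1, 2 and 3, and all 5 were above 0 in every library. Macrophage markers (Cd68, Adgre1, Lyz2, Mrc1 and C1qa) summed to between 73.1 and 99.8 CPM in young aorta and to 332, 99.7 and 215 CPM in aged replicates. Endothelial markers reached 1563 CPM in aged replicate 3, against 317 to 461 CPM in the other libraries. In aged replicate 2, where the fibroblast sum was lowest, Sult1a1 was at 61.6 CPM, beside 59.7 and 60.6 CPM in aged replicates 1 and 3. The part of these cell types in the levels of Sult1a1, Gsta3, Aldh1a1, Fmo1 and Cyp1b1 was not tested. In bulk tissue fewer cells of a type and less RNA per cell cannot be told apart.

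**Figure D3:**
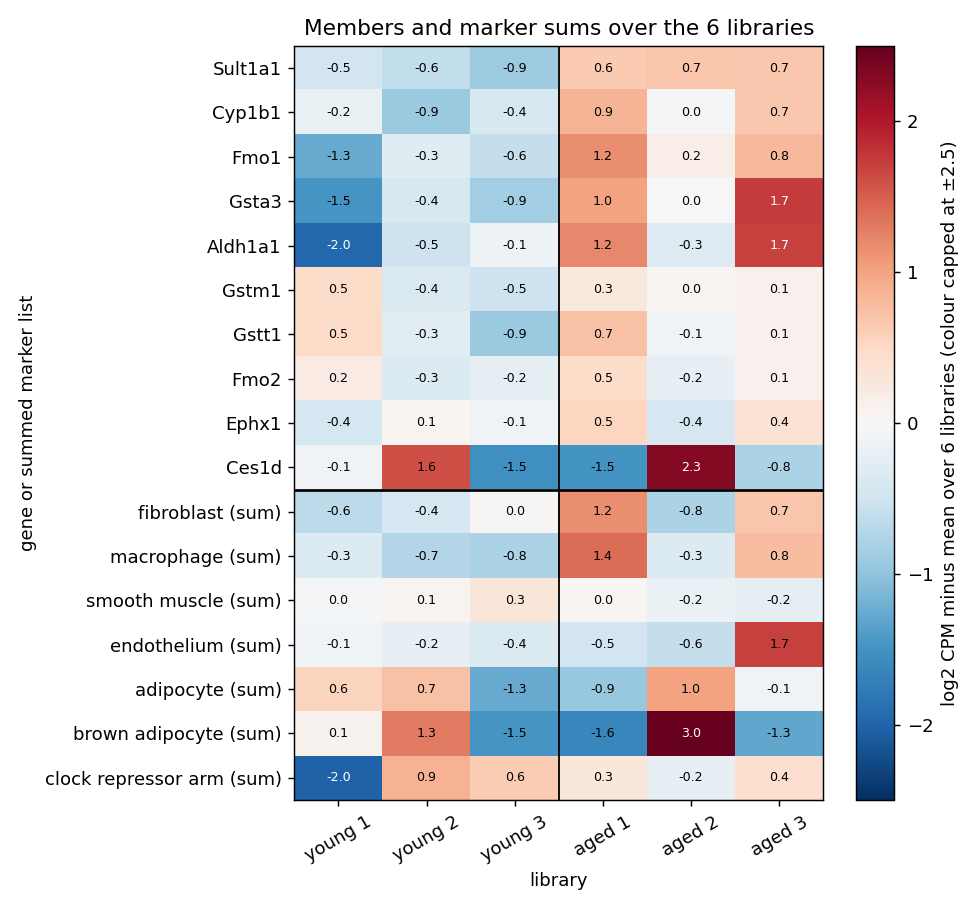
Log2 CPM minus its mean over the 6 libraries (colour and printed value) for the 10 genes, above the line, and for summed marker lists, below it. Columns are libraries, young at left and aged at right. The row named clock repressor arm also holds the PAR bZIP genes Dbp, Tef and Hlf. Aldh1a1, Gsta3 and the fibroblast and macrophage sums are lowest among the aged libraries in aged replicate 2, and Ces1d and the brown adipocyte sum are highest there.

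The genes most like Sult1a1 over the 6 libraries were found by the root mean square difference of log2 CPM, centred on the mean of each gene, among 14084 other genes with at least 1 CPM on average. The nearest were Eif4h (0.18), Smim3 (0.19), Gm13339 (0.20), Pirb (0.21) and Sdcbp2 (0.22). Eif4h, a factor that helps unwind mRNA for translation, was at 86.5, 69.6 and 67.4 CPM in young and 163, 140 and 159 CPM in aged replicates. Smim3, a small membrane protein gene, was at 13.6, 13.2 and 14.0 CPM and at 31.6, 42.0 and 31.6 CPM. The closest of the other 9 xenobiotic genes was Cyp1b1, at a difference of 0.41 and rank 274, and the farthest was Ces1d at 1.57. Among the 10 genes the most alike pair was Gstm1 and Fmo2, at 0.20. All 5 nearest genes share the higher aged level by which Sult1a1 was chosen, so their likeness is a description. The list also changed with the setting, since 2 of the 5 genes remained on the FPKM scale and 1 of 5 without young replicate 1.

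The rest of the pathway was read from 9 lists of 181 other genes, of which 134 passed the filter on low counts. Of these 134, 104 were higher and 30 lower in the aged group, and their median log2 fold change was 0.29. Over all 16612 genes tested, 8654 were higher and the median was 0.02. The split depended on the scaling, since 75 were higher with library totals only (median 0.06) and 78 by limma on FPKM (median 0.04). The same scalings moved the median of all genes to -0.22 and -0.12. At an adjusted p below 0.05 edgeR called 0 of 134 genes (smallest adjusted p = 0.372, edgeR) and limma on FPKM called 0. DESeq2 called 5 (Xdh, Adh1, Sult5a1, Ugt1a7c and Slco2b1), all higher, beside 1.36% of genes called higher. At an unadjusted p below 0.05, edgeR counted 26 genes higher, 19.4% of the 134 beside 5.56% of all genes, and 1 gene lower, beside 4.82%. Limma on FPKM counted 17 genes, or 12.7% of the 134 beside 16.1% of all genes, both in either direction. Of the 17, 10 were higher and 7 lower, whereas of all 16612 genes 418 (2.52%) were higher and 2249 lower. All aged libraries lay above all young ones for 23 genes, or 17.2%, beside 7.74% of all genes, but for 9 genes with library totals only, beside 3.05%. The values that follow describe these genes, none of which passed the edgeR test in 6 libraries. The log2 fold changes of Cyb5r3, Akr1a1, Aldh2, Pon3 and Gsr turned negative with library totals only.

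The phase I oxidases, 22 tested genes, had a median log2 fold change of 0.49. At an unadjusted p below 0.05, 9 genes (40.9%) were higher, beside 5.56% of all genes. Por, the reductase that supplies electrons to microsomal P450 enzymes, averaged 104 ± 24.6 CPM in young and 181 ± 33.9 CPM in aged aorta (SD, n = 3 each), and its difference on the log2 scale was 0.81 (adjusted p = 0.382, edgeR). Its partner Cyb5a had a log2 fold change of 0.53, and the P450 genes Cyp2j6 and Cyp2d22 0.73 and 0.66, all 4 with groups that did not overlap. Xdh, the xanthine dehydrogenase of purine breakdown, was at 23.3 ± 3.14 and 48.2 ± 15.6 CPM (SD, n = 3 each; log2 fold change 1.05). Aox1 (0.40), Aox3 (1.89) and Cyp3a13 (2.42) were also among the 9, the last at 0.885 CPM or below in every library. The most abundant per length was Cyb5r3, at 116 FPKM with a log2 fold change of 0.21.

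Of 24 tested dehydrogenases and reductases, 4 (16.7%) were higher at an unadjusted p below 0.05, beside 5.56% of all genes, and none lower. Adh1, an alcohol dehydrogenase that also acts on retinol, had 21.2, 23.7 and 17.2 CPM in young and 56.96, 24.3 and 61.4 CPM in aged replicates 1, 2 and 3 (log2 fold change 1.20, adjusted p = 0.381, edgeR). Its lowest aged library was aged replicate 2, as for Aldh1a1, the next enzyme of the retinoid path. The same held for 38% of all genes tested. Without that library edgeR called Adh1 (log2 fold change 1.52, adjusted p = 0.0356). Aldh3a1, Akr1b8 and Cbr3 had log2 fold changes of 1.46, 0.83 and 0.80. The abundant Cbr2, Akr1a1 and Aldh2, at 214, 114 and 75.5 FPKM, had -0.17, 0.16 and 0.19, each within about 1 standard error of 0.

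Hydrolases lay on both sides of 0. Of 12 tested genes 5 were higher and 7 lower, with a median of -0.06. Ces2g had a log2 fold change of 0.69, and Bche, the plasma cholinesterase, was the only one of the 134 genes lower at an unadjusted p below 0.05, at 30.7 ± 6.55 CPM in young and 18.1 ± 5.99 CPM in aged aorta (SD, n = 3 each; log2 fold change -0.76, adjusted p = 0.448, edgeR). The most abundant, Ephx2, Pon3 and Pon2, had 0.78, 0.12 and -0.01.

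Among 17 tested glutathione transferases besides the 3 described above, 16 were higher, with a median of 0.25. With library totals only 10 were higher (median 0.02), beside a median of -0.22 over all genes. Mgst1, a membrane-bound transferase, was at 50.4, 51.8 and 23.0 CPM in young and 66.9, 96.7 and 70.1 CPM in aged replicates (log2 fold change 0.90, adjusted p = 0.434, edgeR). Gstp2 had 0.83, but it is a close copy of Gstp1 (0.23), so reads can be split between them. Gstm2, the most abundant at 118 FPKM, had 0.26. Of the glutathione synthesis genes, Gclc, the catalytic subunit of the rate-limiting ligase, had 0.56 and Gsr, which reduces glutathione, 0.06, with Oplah at 0.47.

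Most other sulfotransferases were below the filter. Of 13 such genes, only Sult5a1 passed the filter, at 1.55, 4.08 and 3.96 CPM in young and 24.9, 5.22 and 18.7 CPM in aged replicates 1, 2 and 3. Its groups did not overlap, its log2 fold change was 2.35 (adjusted p = 0.377, edgeR), and, unlike Sult1a1, it had aged replicate 2 close to the young range. The sulfate donor PAPS is made by Papss1 and Papss2. Papss1 averaged 33.9 ± 3.64 and 30.3 ± 2.34 CPM (SD, n = 3 each), and its difference on the log2 scale was -0.16 (standard error 0.15), and Papss2 had 0.62 (standard error 0.38).

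Among the other conjugating enzymes, Inmt, a methyltransferase of amines, had 16.6, 33.5 and 52.9 CPM in young and 248, 31.0 and 195 CPM in aged replicates. Its log2 fold change was 2.21 (adjusted p = 0.414, edgeR), and aged replicate 2 lay within the young range. Ugt1a7c was at 0.351 CPM or below in young and at 4.18, 1.54 and 7.998 CPM in aged replicates. The Ugt1a genes share their last exons, so reads may be split among them. Ugdh, which makes the glucuronate donor, had 0.53, while Nnmt, a methyltransferase, had -0.28.

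Transporters had 4 of 18 tested genes (22.2%) higher at an unadjusted p below 0.05, beside 5.56% of all genes. Slco2b1, an organic anion carrier, was at 4.87, 6.75 and 5.86 CPM in young and 22.2, 9.89 and 32.2 CPM in aged replicates (log2 fold change 1.88, adjusted p = 0.372, edgeR, and 2.22 with adjusted p = 0.0344 without aged replicate 2). The efflux pumps Abcb1b, Abcc4 and Abcg2 had 0.98, 0.88 and 0.86, and the more abundant Abcc1 and Abcc5 had -0.30 and -0.32.

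The sensing factors had a median of 0.20 over 18 tested genes, with 13 higher. With library totals only 9 were higher (median -0.04), beside a median of -0.22 over all genes. Ahr, the dioxin receptor, was between 2.05 and 3.76 CPM in all libraries, and Nr1i2, the pregnane receptor, did not pass the filter. Tiparp, a target and inhibitor of AHR, was at a log2 fold change of 0.88 (adjusted p = 0.448, edgeR). Cyp1a1, the classic AHR target, had 2.72 with a standard error of 1.19, at 4.08 CPM or below in every library. Not all genes linked to AHR were higher, since Nqo1 had -0.07 (standard error 0.21). Cyp1a2, with 8 counts or fewer in every library, did not pass the filter. Nfe2l2, which encodes NRF2, had 0.31 with groups that did not overlap. Dbp, the PAR bZIP factor most abundant here, had 10.1, 436 and 316 CPM in young and 261, 125 and 205 CPM in aged replicates, and young replicate 1 was far below the rest. Sult1a1 was at 27.3 CPM in that library, against 25.0 and 20.3 CPM in young replicates 2 and 3. Whether clock phase or sex bears on the level of Sult1a1, or on the high Gstm1 and Gstt1 of young replicate 1, was not tested.

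**Figure D4:**
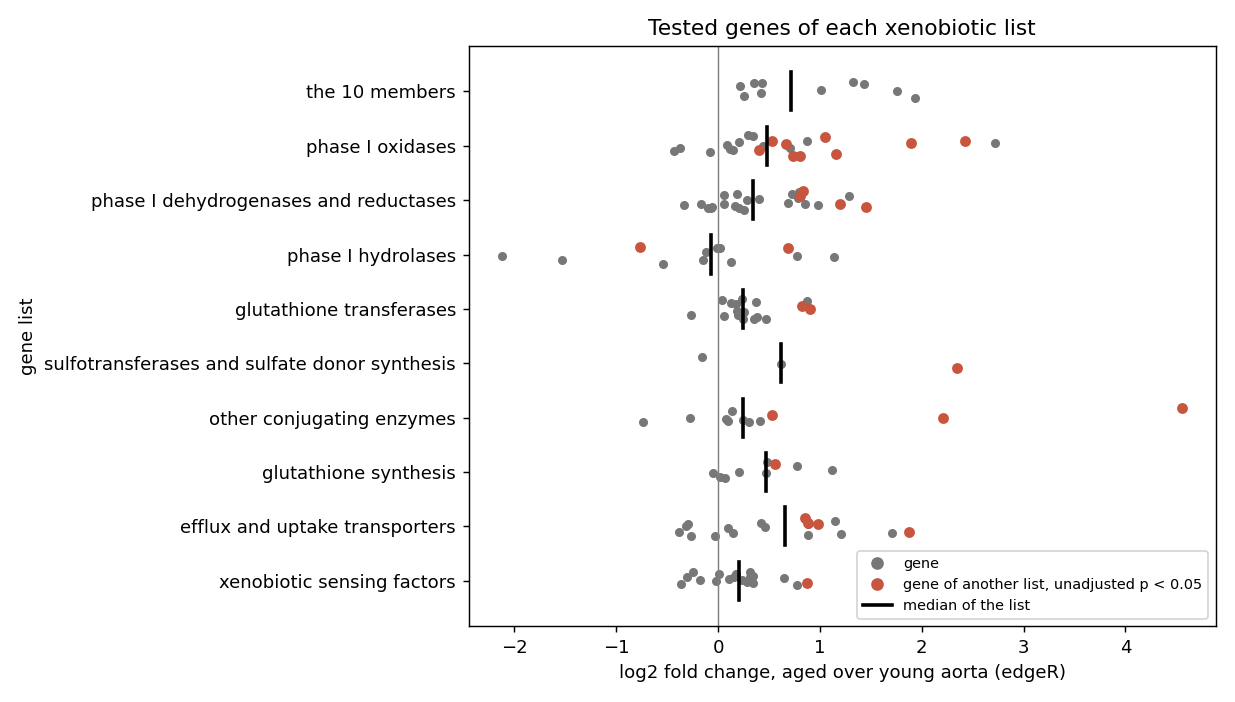
Log2 fold change of aged over young aorta (horizontal axis, edgeR) for every tested gene of the 10 described in detail and of the 9 other xenobiotic lists. Each point is a gene, and black bars are medians. Coloured points are genes of the 9 other lists with an unadjusted p below 0.05. The 10 genes are drawn without this colour whatever their p. The medians lie between -0.06 for hydrolases and 0.72 for the 10 genes, which were chosen from this comparison.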

How the data were processed

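RNA-seq of 6 aorta libraries was analysed. The authors deposited raw read counts per gene and FPKM, the count scaled by gene length and library reads. Per the labels, libraries were made with a SMARTER mRNA kit and the processing notes name mm10, while the aligner and counter are not given in the sources used here. Of 55335 identifiers, 55154 were found in GENCODE M21 (GRCm38).

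Counts were filtered with edgeR 4.0.16 in R 4.3.3 (filterByExpr, minimum count 10, minimum total count 15), scaled by TMM and fitted by quasi-likelihood with group alone, over 16612 genes, p adjusted by Benjamini-Hochberg and called below 0.05. Standard errors are the log2 fold change divided by the square root of F. The fit was tested on simulated data. DESeq2 1.42.0, limma 3.58.1 on log2(FPKM + 1) and log2(FPKM + 0.1), other scalings, filters, robust fitting, a replicate block and left-out libraries were alternatives. Total counts of 31049632 to 45832185 set the precision. The genes and lists were chosen with earlier results of these data known. Named from the lists are the 3 genes highest in mean FPKM and those with an unadjusted p below 0.05. Some of these genes are not reported here. Beside these, Cyp1a1, Cyp1a2, Nqo1, Ahr and Nr1i2 were named after their values were seen.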

Additional observations from a re-analysis of the deposited data

How the results depend on the processing

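With 3 mice a group and a pair of libraries that stood apart, few differences can be told from the spread between mice. Counting by strand is unknown, and sex and clock phase of young replicate 1 cannot be separated from that mouse. Across 17 alternatives the log2 fold change of Sult1a1 ran from 1.07 to 1.43, that of Cyp1b1 from 0.69 to 1.41, of Fmo1 from 1.11 to 1.66, of Gsta3 from 0.90 to 2.28 and of Aldh1a1 from 1.27 to 2.15. The cause was not tested for any value that moved.

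By edgeR, 0 genes, 0 of the 10 genes and 0 of 134 other xenobiotic genes were called, also with RLE size factors, library totals only, mitochondrial genes removed, either other filter, robust fitting and without young replicate 1 and aged replicate 2 together. DESeq2 called 305 genes, 4 of the 10 and 5 of the others. With 1 library left out the counts were 0 to 110, 0 to 1 and 0 to 2, the highest each without aged replicate 2. Below an unadjusted p of 0.05 lay 1723 genes (923 higher, 800 lower), but 2933 with library totals only (432 higher, 2501 lower), 2667 and 2663 by limma with a pseudocount of 1 and 0.1 (418 and 442 higher), 2766 without young replicate 1 and aged replicate 2, and 1061 (without young replicate 3) to 2359 (without aged replicate 2) with 1 library left out. Medians of all genes moved to -0.22 with library totals, and to -0.12 and -0.19 by limma. Of the other xenobiotic genes 27 had an unadjusted p below 0.05, but 17 by limma with either pseudocount, 15 (without young replicate 3) to 33 with 1 library left out and 39 without young replicate 1 and aged replicate 2. Of the 10 genes 5 did, and 9 without young replicate 1 and aged replicate 2. Every aged library lay above every young one for 4 of the 10 genes. With library totals only this held for 3, beside 3.05% of all genes, and with 1 library left out for 4 to 7. This held for 7 without young replicate 1, beside 15.8% of all genes, and for 6 without aged replicate 2, beside 17.5%. Without both it held for 9, beside 26.2%. For the other genes, counted in the same direction, the 23 became 9 with library totals only, 24 to 48 with 1 library left out and 62 without both. Of the genes nearest to Sult1a1, 2 of 5 remained on the FPKM scale and 1 of 5 without young replicate 1.

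Directions near 0 reversed. With library totals only, Cyb5r3, Akr1a1, Aldh2, Pon3 and Gsr were at -0.025, -0.071, -0.042, -0.11 and -0.17. By limma with a pseudocount of 1 they were at -0.0038, -0.068, -0.0085, -0.076 and -0.14, and with 0.1 at -0.0038, -0.069, -0.0084, -0.082 and -0.16, with Gstp1 at -0.022 and -0.023 and Dbp at 0.43 and 0.53. Without young replicate 1 and aged replicate 2, Cbr2 was at 0.054, Pon2 at 0.099, Gstp1 at 0.79 and Ephx2 at -0.0076. With 1 library left out, Cbr2 ran from -0.32 to 0.02, Pon2 from -0.13 to 0.083, Gstp1 from -0.041 to 0.53, Ephx2 from 0.12 to 1.33, Dbp from -0.93 to 0.28 and Ces1d from -1.64 to 1.61.

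Under a block on replicate number edgeR called 0 genes, 0 of the 10 genes and 0 of the others, with 1782 genes, 5 of the 10 and 27 of the others at an unadjusted p below 0.05, and Dbp was at 0.26. Same-numbered mice correlated at 0.079, 0.117 and 0.096 in their deviations from the group means, and each correlated best with its own number, but the labels name no pairing, so the numbers were not taken to pair the mice.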

Other observations

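Some xenobiotic genes outside the 10 had levels set by single libraries. Cyp2e1, the ethanol-inducible P450 of liver and fat, was at 63.2 CPM in young replicate 2 and between 5.30 and 33.2 CPM in the other libraries. Ephx2, the soluble epoxide hydrolase that inactivates vasodilator epoxides of arachidonic acid, was at 90.5 CPM in aged replicate 2 and 49.3 CPM in young replicate 2, the libraries with the highest Ucp1 (1422 and 361 CPM), and between 17.0 and 33.7 CPM elsewhere. Slco2a1, the prostaglandin carrier, was at 72.6 CPM in aged replicate 3 and between 11.6 and 19.9 CPM elsewhere. That library also had Pecam1, an endothelial marker, at 870 CPM, against 167 to 225 CPM in the others. The hepatocyte gene Alb was at 102 CPM in young replicate 3 and between 10.8 and 23.3 CPM elsewhere, with Ces3a, a liver esterase, at 4.52 CPM there and at 1.29 CPM or below elsewhere. These genes were chosen after their values were seen.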
